A study of Danio rerio with 4 samples.

Results

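Pancreatic digestive proteases were followed in whole zebrafish (Danio rerio) embryos through 10 genes, taken by their symbols from a table of raw read counts with 23236 rows. They were the trypsin genes prss1, prss59.1 and prss59.2, the chymotrypsin gene ctrb1, the elastase genes ela2, ela2l and ela3l, and the carboxypeptidase genes cpa1, cpa4 and cpb1. All 10 stood on a row of their own and passed the filter on low counts, which left 20097 genes tested. The mutant group was 2 libraries of embryos genotyped as tubgcp6 mutants, and the sibling group was 2 libraries of their siblings. Both came from intercrosses of tubgcp6 heterozygotes of the strain AB, were raised at 28 °C and taken at 7 days post fertilisation with no treatment. The protein made from tubgcp6 belongs to the gamma-tubulin ring complex, from which microtubules grow. The lesion, the genotypes among the siblings, the number of embryos in a library and whether the groups shared clutches were not stated. The sample titles call the libraries of a group biological replicates, without saying how they were made separate. P-values therefore reflect how far these libraries spread, by an estimate that draws on all genes tested. Whether that spread is as wide as between separate clutches is not known.

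Digestive proteases are made by the acinar cells of the exocrine pancreas, which pack them as inactive precursors (zymogens) into granules and release them into the gut. In vertebrates the intestinal enzyme enteropeptidase activates trypsinogen, and trypsin in turn activates the other zymogens. Trypsin, chymotrypsin and elastase are serine proteases that cut within a protein chain after different residues, whereas carboxypeptidases take single residues off the end of the chain. In mammals the acinar program depends on a complex of the transcription factors PTF1A and RBPJL.

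The libraries held 17074352 and 17833761 reads assigned to genes in mutants and 14246582 and 20652276 in siblings. The mutated gene itself was counted 510 and 531 times in mutants, against 498 and 803 times in siblings, a log2 fold change (mutant over sibling throughout) of -0.33 ± 0.10 (SE). That change passed in edgeR's quasi-likelihood test (adjusted p = 0.0123) and was lost in DESeq2 (adjusted p = 0.0585) and without sibling replicate 2 (adjusted p = 0.267). At the same threshold, an adjusted p under 0.05, 21% of the genes tested were lower and 22.9% higher in mutants. The number of lower genes was 4218, or 2429 without sibling replicate 2, and that of higher genes was 4598, or 2976 without it.

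All 10 protease genes were lower in mutants, by 2.42-fold to 5.87-fold, and 0 were higher. For comparison, 4.32% of all genes tested were lower by at least 2-fold with an adjusted p under 0.05. Among the 788 genes expressed at least as highly as the lowest of the 10, that share was 7.11%. Those 788 include the 10. With an adjusted p under 0.05 and no limit on the fold, 38.5% of the 788 were lower. The median log2 fold change of all 788 was -0.13. The median log2 fold change over the 10 was -1.89, beside 0.01 over all genes tested. Their log2 fold changes lay between the lowest 0.423% and the lowest 2.91% of all genes. In none of the 10 did the groups overlap in CPM, which are counts over the library total after scaling by edgeR's TMM factors; over all genes, both mutant libraries lay below both sibling libraries in 35.1%. Fewer acinar cells and less protease RNA per cell cannot be told apart in whole-embryo RNA.

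**Figure D1:**
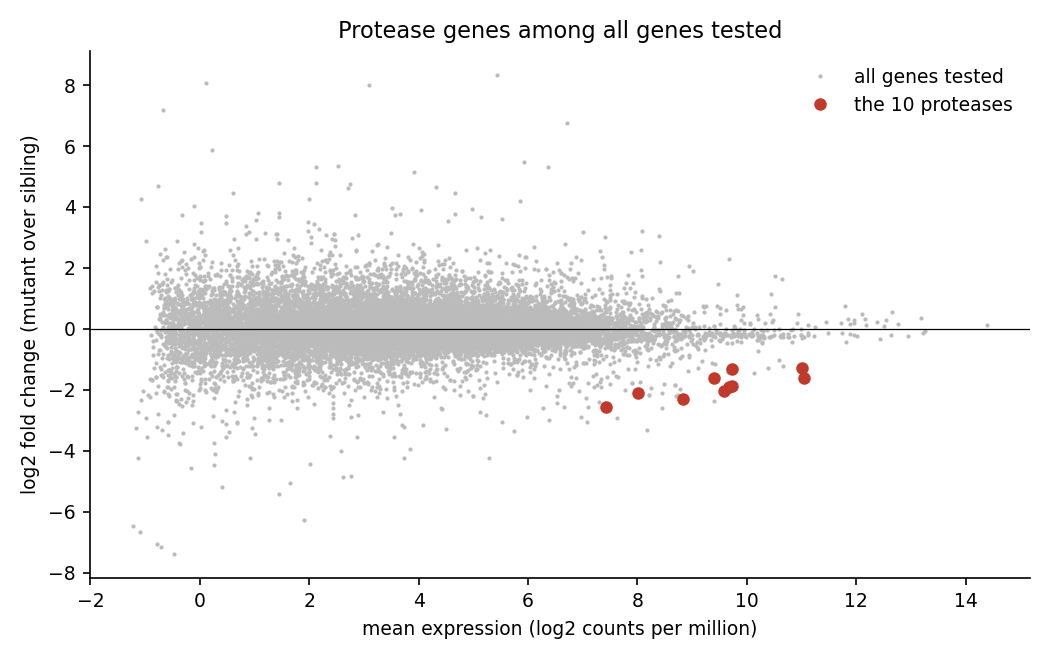
Mean expression (log2 CPM) against log2 fold change (mutant over sibling) for the 20097 genes tested, in grey, and the 10 proteases, in red. The proteases lie in the upper range of expression and all between -2.55 and -1.28.

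Summed over the 10 genes, proteases took 0.446% and 0.432% of all assigned reads in the mutant libraries, against 1.36% and 1.36% in the sibling libraries. Scaled, the sum was 4368 ± 180 CPM in mutants and 13650 ± 99.6 CPM in siblings (n = 2 each, ± SD), a 3.13-fold lower level in mutants. Both mutant libraries were thus close to each other and far below both sibling libraries. The sum is led by genes with many reads, and counts were not divided by transcript length, so levels are compared between groups within a gene and not between genes.

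The trypsin genes fell by differing amounts. Trypsin gene prss1 had 1067 and 1023 CPM in mutants, against 3251 and 3116 CPM in siblings. Its log2 fold change was -1.61 ± 0.09 (SE; adjusted p = 3.3e-15, edgeR's quasi-likelihood test after Benjamini-Hochberg adjustment, as for every adjusted p below unless another tool is named). The libraries of each group stood close together and the groups were well apart. A second trypsin family gene, prss59.1, had 384 and 351 CPM in mutants, against 1340 and 1328 CPM in siblings (log2 fold change -1.86 ± 0.09, adjusted p = 4.57e-17). Its neighbour prss59.2 had 507 and 459 CPM in mutants, against 1238 and 1197 CPM in siblings (log2 fold change -1.33 ± 0.09, adjusted p = 1.02e-13).

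The genes prss59.1 and prss59.2 stand next to each other in the RefSeq annotation of the assembly GRCz12tu, and how the authors' counting split reads between similar copies is not given in the sources used here. Within a library, prss59.1 had 0.757 and 0.765 counts per count of prss59.2 in mutants, against 1.08 and 1.11 in siblings. The order of the 2 genes by counts was therefore the opposite in mutants of that in siblings, in both libraries of each group. Their sum, which does not depend on the split between these copies, was 891 and 810 CPM in mutants, against 2578 and 2525 CPM in siblings, or 3.0-fold lower in mutants.

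Chymotrypsin gene ctrb1 fell least of the 10 by estimate. It had 1212 and 1190 CPM in mutants, against 2956 and 2857 CPM in siblings, and a log2 fold change of -1.28 ± 0.09 (adjusted p = 5.17e-13). The estimate of prss59.2 lies within 1 SE of it, so the order of these 2 is not resolved. Mutant and sibling libraries did not overlap. The ratio of ctrb1 to prss1 was higher in mutants, at 1.14 and 1.16 counts per count of prss1, against 0.910 and 0.917 in siblings.

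All 3 elastase genes fell. The gene ela2 had 305 and 289 CPM in mutants, against 1180 and 1280 CPM in siblings (log2 fold change -2.05 ± 0.09, adjusted p = 5.17e-18). Next to it in the RefSeq annotation is ela2l, for which the symbol ctrc is a synonym there, with 356 and 325 CPM in mutants, against 1284 and 1296 CPM in siblings (log2 fold change -1.92 ± 0.09, adjusted p = 2.19e-17). Summed, this pair was 3.95-fold lower in mutants. The gene ela3l, on another chromosome, had 340 and 323 CPM in mutants, against 1012 and 1012 CPM in siblings (log2 fold change -1.61 ± 0.08, adjusted p = 6.79e-16). Per count of ela2, there were 1.12 and 1.12 counts of ela3l in mutants, against 0.857 and 0.790 in siblings, so ela3l fell less than ela2 in every pairing of libraries.

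The carboxypeptidase genes had the 3 lowest log2 fold changes of the 10. Carboxypeptidase A takes off aromatic and aliphatic end residues, and carboxypeptidase B takes off lysine and arginine. The gene cpa1 had 103 and 91.6 CPM in mutants, against 420 and 419 CPM in siblings (log2 fold change -2.11 ± 0.09, adjusted p = 2.79e-18). For cpa4, of the same A family, the values were 57.1 and 43.2 CPM in mutants, against 286 and 301 CPM in siblings. That is a log2 fold change of -2.55 ± 0.10 (adjusted p = 1.4e-18), the lowest of the 10. The gene cpb1 had 164 and 145 CPM in mutants, against 751 and 772 CPM in siblings (log2 fold change -2.30 ± 0.09, adjusted p = 5.43e-19). The mutant libraries differed most, in proportion, for cpa4, and every mutant value of the 3 genes was under a sibling value by a wide margin. The estimates of cpa1 and ela2, at -2.11 and -2.05, differed by less than their SE.

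**Figure D2:**
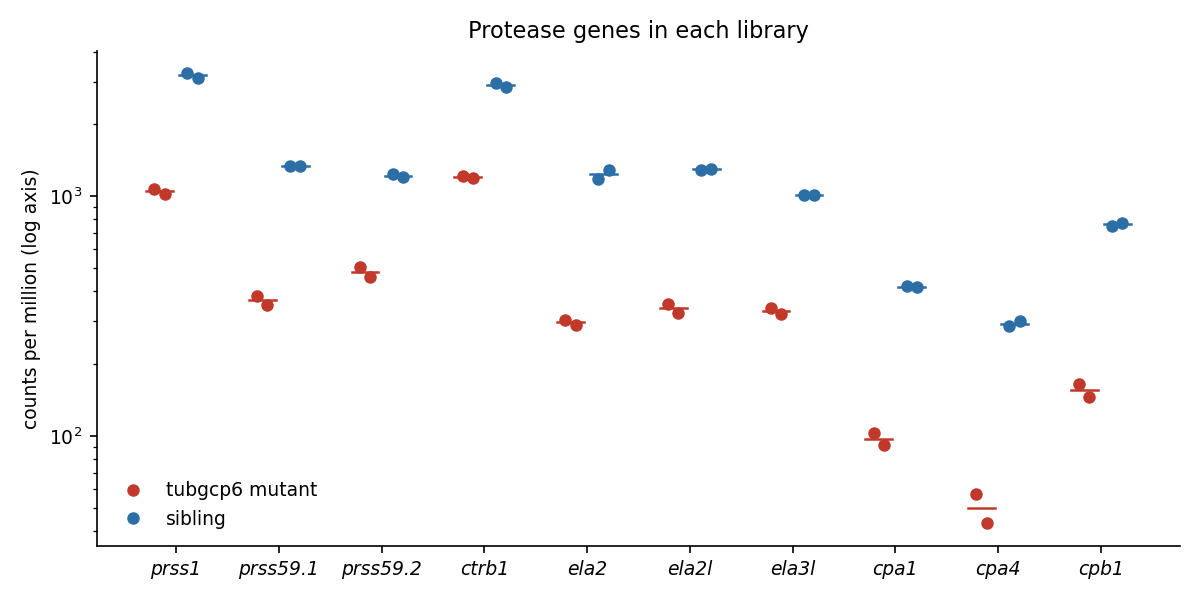
CPM (log axis) of the 10 protease genes in each library, with mutants in red left of siblings in blue; dots are libraries and bars are group means. In every gene both mutant dots lie under both sibling dots, from 1045 against 3184 CPM on average in prss1 to 50.2 against 294 CPM in cpa4.

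By class, the sum of the 3 carboxypeptidase genes was 302 ± 31.4 CPM in mutants and 1474 ± 24.5 CPM in siblings, 4.88-fold lower in mutants (n = 2 each, ± SD). The elastase sum was 969 ± 45.4 CPM in mutants and 3532 ± 78.9 CPM in siblings, 3.65-fold lower. For the trypsins it was 1896 ± 87.5 CPM in mutants and 5735 ± 133 CPM in siblings, 3.03-fold lower, beside 2.42-fold for ctrb1, the only gene classed as chymotrypsin. Classes follow the symbols, so ela2l, 3.79-fold lower, was summed with the elastases although its synonym ctrc is a chymotrypsin name. The order of the classes holds for these 10 genes only, as related genes outside them had other values. Carboxypeptidase gene cpa5, at 786 CPM in mutants against 1894 CPM in siblings on average, was 2.41-fold lower. Elastase 1 genes cela1.6 and cela1.3 were 2.40-fold and 3.96-fold lower. In the chymotrypsinogen family, zgc:136461 was 3.61-fold and zgc:112160 2.22-fold lower.

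The make-up of the protease reads therefore differed between the groups. Shares within the summed counts of the 10 genes need no scaling of libraries. Carboxypeptidases made up 7.21% and 6.60% of the protease counts in mutant libraries, against 10.6% and 11.0% in siblings, and elastases 22.3% and 22.1% in mutants, against 25.3% and 26.4% in siblings. Chymotrypsin gene ctrb1 alone made up 27.0% and 28.1% in mutants, against 21.55% and 21.04% in siblings, the share that moved most. Trypsins stood at 43.6% and 43.3% in mutants, against 42.5% and 41.6% in siblings. Shares of a whole are tied together, so a higher share of one gene lowers the others.

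To compare the falls of the 10 genes with each other, the same edgeR fit over all genes was run with another scaling. Libraries were scaled to the summed counts of the 10 genes, a choice made after seeing the data. Scaled to their own sum, the 10 cannot all lie on the same side of 0. Against that sum, 6 genes were lower and 2 higher in mutants. On that scale 0.602% of all genes were lower and 95.4% higher, as most of the transcriptome rises when the proteases are held level. With so many genes passing, the adjustment hardly changes the p of edgeR's quasi-likelihood test. For prss59.1 it was 0.00404 before and 0.00437 after adjustment. The lower ones were cpa4 (-0.91 ± 0.10, SE), cpb1 (-0.66 ± 0.07), cpa1 (-0.47 ± 0.07), ela2 (-0.41 ± 0.07), ela2l (-0.28 ± 0.06) and prss59.1 (-0.22 ± 0.06), with adjusted p from 8.57e-07 for cpb1 to 0.00437 for prss59.1. The higher ones were ctrb1 (0.37 ± 0.06, adjusted p = 2.42e-05) and prss59.2 (0.31 ± 0.06, adjusted p = 0.000309). Neither prss1 (0.04 ± 0.06, adjusted p = 0.517) nor ela3l (0.03 ± 0.06, adjusted p = 0.605) passed. The call for prss59.1 depended on both sibling libraries, with an adjusted p of 0.05001 without replicate 1 and 0.0510 without replicate 2. Since prss1 and ctrb1 hold large parts of the sum, the values of these genes are pulled towards 0.

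**Figure D3:**
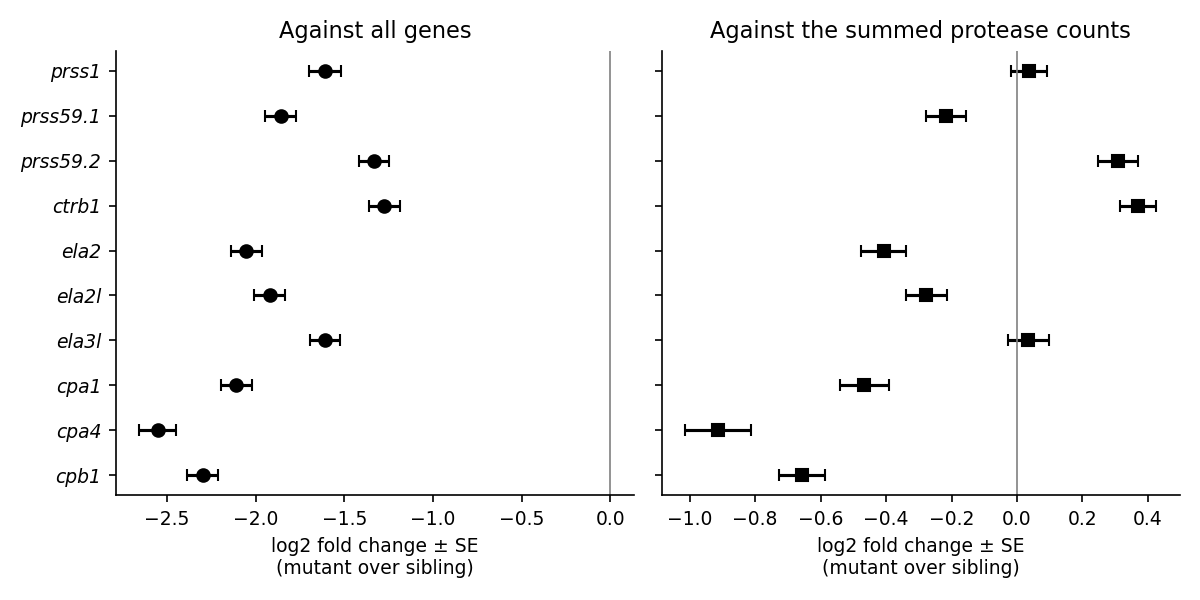
Log2 fold change (mutant over sibling) with its SE for each protease gene, from the fit scaled on all genes (left) and from the fit scaled on the summed protease counts (right). On the left all 10 lie below -1; on the right the carboxypeptidases lie lowest, down to -0.91 for cpa4, and ctrb1 highest at 0.37.

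**Figure D4:**
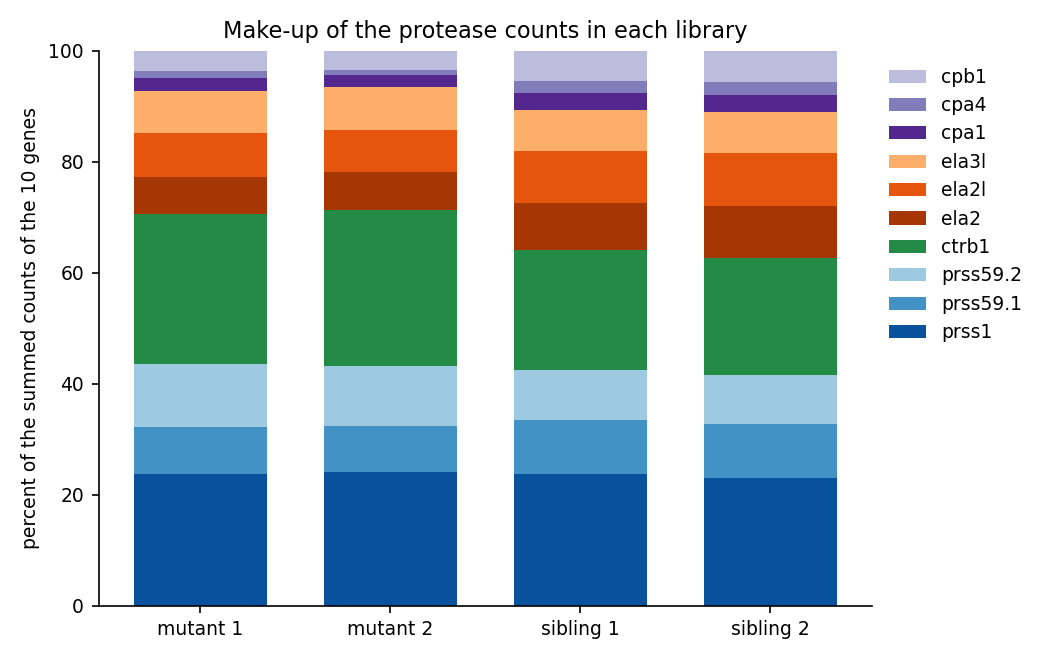
Percent of the summed counts of the 10 protease genes held by each gene, 1 bar per library. The green block of ctrb1 is taller in the 2 mutant libraries (27.0% and 28.1%) than in the 2 sibling libraries (21.55% and 21.04%). The purple blocks of the carboxypeptidases are shorter in mutants.

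Most other zymogen genes of the pancreas were lower as well. Of 12 such genes measured, 11 fell and 1 rose, with a median log2 fold change of -1.21. Among those that fell were the chymotrypsinogen family gene listed as zgc:136461, which RefSeq names ctrb.2 (-1.85 ± 0.08, adjusted p = 2.55e-17), the astacin gene c6ast4 (-1.39 ± 0.08) and the elastase 1 genes cela1.3 (-1.99 ± 0.12) and cela1.6 (-1.27 ± 0.09). Genes of this family that resemble each other can share reads.

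Genes of other acinar products were mostly lower too. Of 11 genes of lipases, amylase and other secreted products, 10 fell, 0 rose and 1 was not called; the median was -1.40. Starch-cutting amylase gene amy2a had 5452 and 5196 counts in mutant libraries, against 16572 and 24453 in siblings (-1.96 ± 0.09, adjusted p = 1.91e-17). Syncollin gene sycn.2, of a zymogen granule protein, fell by 1.88 ± 0.09 on the log2 scale, bile salt-activated lipase gene cel.2 by 1.74 ± 0.09 and pancreatic phospholipase gene pla2g1b by 2.15 ± 0.11. The count of prss1 per count of amy2a was 3.31 and 3.58 in mutants, against 2.77 and 2.63 in siblings.

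Transcription factor genes of the acinar program were mixed, and ptf1a, rbpjl and bhlha15 had few reads. Of 10 genes, 2 fell, 1 rose and 7 were not called. Their median was -0.23. Neither share exceeds that over all genes tested, with 21% lower and 22.9% higher. PTF1 complex gene rbpjl had 18 and 21 counts in mutant libraries, against 43 and 42 in siblings (-1.14 ± 0.35, adjusted p = 0.00857), and the secretory cell factor gene bhlha15 had 13 and 19 in mutants, against 21 and 50 in siblings (-1.15 ± 0.38, adjusted p = 0.0153). Both calls were lost in DESeq2 (adjusted p = 0.0679 for rbpjl and 0.143 for bhlha15). The call for rbpjl was also lost without sibling replicate 1 (adjusted p = 0.117). For bhlha15 it was lost without mutant replicate 1 (adjusted p = 0.0710), and leaving out sibling replicate 2 brought it to -0.70 (adjusted p = 0.375). The gene ptf1a had 12 and 18 counts in mutant libraries, against 17 and 35 in siblings (-0.80 ± 0.41, adjusted p = 0.111), so a change was not detectable at this depth. The gene xbp1, of a factor of the unfolded protein response that secretory cells need, rose by 0.56 ± 0.08 (adjusted p = 3.15e-06).

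Of 10 genes of the hormonal trigger, granule release and activation of zymogens, 1 fell, 2 rose and 7 were not called. Their median was 0.04. Neither share exceeds that over all genes tested, with 21% lower and 22.9% higher. Without mutant replicate 1, 2 fell. The enteropeptidase gene tmprss15 had 73 and 69 counts in mutant libraries, against 88 and 127 in siblings (-0.61 ± 0.21, adjusted p = 0.0182). The granule fusion gene vamp8 rose by 0.47 ± 0.10 (adjusted p = 0.000498) and the granule GTPase gene rab3da by 0.65 ± 0.21 (adjusted p = 0.0142). Whether these rises lay in acinar cells was not tested in whole-embryo RNA. The cholecystokinin gene cckb was at 0.25 ± 0.12 (adjusted p = 0.0852), and was called higher at 0.29 without mutant replicate 2 (adjusted p = 0.0363). In DESeq2 the calls for tmprss15 (adjusted p = 0.115) and rab3da (adjusted p = 0.111) were lost, and leaving out mutant replicate 2 or either sibling library ended them too, with adjusted p from 0.0628 to 0.102.

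Genes of the endocrine pancreas were mixed. Of 15 islet genes tested, 7 fell, 5 rose and 3 were not called; the median was -0.30. The 5 that rose were all hormone genes, namely ins (0.60 ± 0.12), gcga (1.44 ± 0.21), gcgb (1.70 ± 0.22), sst1.1 (0.85 ± 0.12) and sst1.2 (0.64 ± 0.18), of which sst1.2 was not called without sibling replicate 1 (adjusted p = 0.0659). The ghrelin gene ghrl, also of a hormone, was at 0.37 ± 0.31 (adjusted p = 0.349). Among those that fell were the transcription factor genes neurod1 (-1.63 ± 0.09), insm1a (-1.54 ± 0.14) and pax6b (-0.91 ± 0.11), which are also expressed in the retina and brain. For the genes that rose as for those that fell, whether the reads came from the islets was not tested in whole-embryo RNA. Within a library there were 29.3 and 32.8 counts of prss1 per count of the insulin gene ins in mutants, against 135 and 150 in siblings.

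Of 10 duct and progenitor genes, 3 rose and 2 fell, with a median of 0.06. These shares are near those over all genes tested, of which 22.9% were higher and 21% lower. The chloride channel gene cftr rose by 1.02 ± 0.18, sox9b by 0.55 ± 0.10 and foxa3 by 0.68 ± 0.13, while prox1a fell by 0.73 ± 0.11. The RNA was of whole embryos, and whether the reads of these genes came from the pancreas was not tested. The fall of onecut1 (-0.50 ± 0.18) was lost in DESeq2 (adjusted p = 0.112), with library totals alone (adjusted p = 0.0523) and without mutant replicate 1, where it was -0.19 (adjusted p = 0.356), or either sibling library (adjusted p = 0.0741 and 0.0539).

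**Figure D5:**
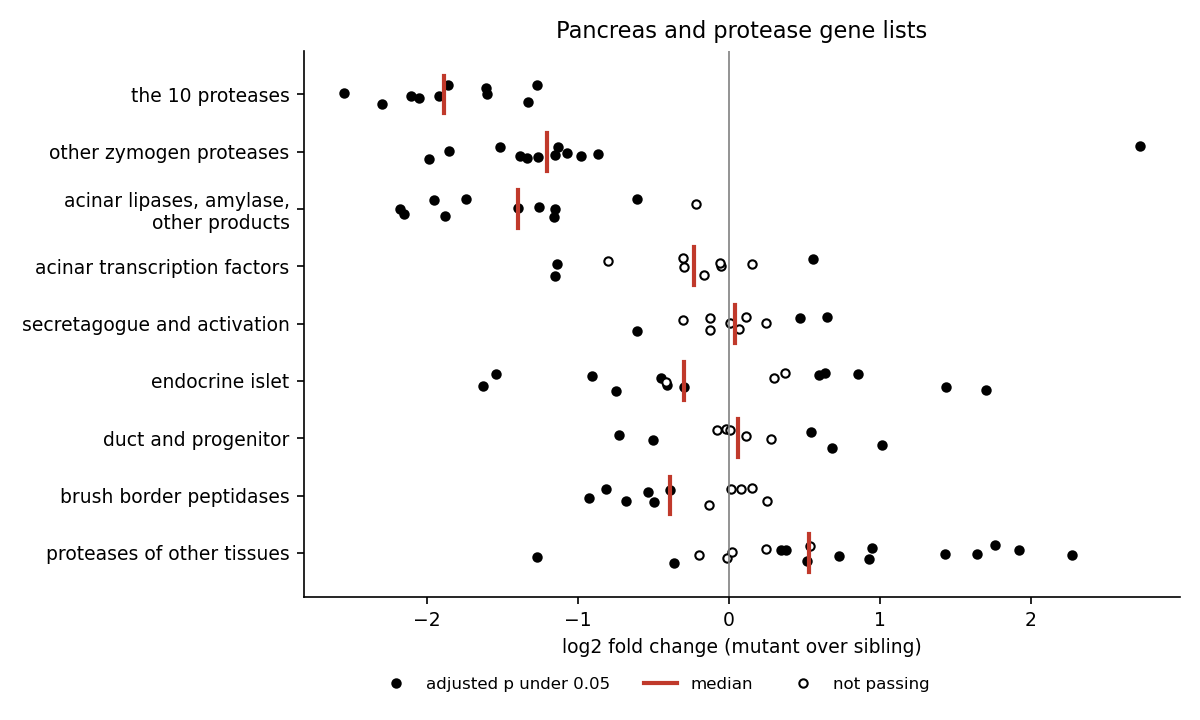
Log2 fold change (mutant over sibling) of each tested gene in the protease set and in 8 other lists; filled dots passed an adjusted p of 0.05, open dots did not, and red bars are medians. The medians of the 3 lists of secreted enzymes lie at -1.89, -1.21 and -1.40 and those of the other 6 lists between -0.39 and 0.53.

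Peptidases of the gut surface, which finish the digestion that pancreatic proteases begin, had a median nearer to 0. Of 11 genes of brush border peptidases and peptide uptake, 6 fell, 0 rose and 5 were not called; the median was -0.39, and 1 was higher without mutant replicate 2. The falls included peptide transporter gene slc15a1b (-0.93 ± 0.09), meprin gene mep1b (-0.68 ± 0.14) and dpp4 (-0.54 ± 0.11). Of 7 intestine markers 4 fell and 1 rose (median -0.76), led by cubn at -1.68 ± 0.12, fabp6 at -1.12 ± 0.09, fabp2 at -0.93 ± 0.08 and vil1 at -0.76 ± 0.08, with cdh17 at 0.24 ± 0.09 in a call lost in DESeq2 (adjusted p = 0.0918) and when sibling replicate 1 (adjusted p = 0.262) or replicate 2 (adjusted p = 0.161) was left out.

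Carboxypeptidases and serine proteases that were listed for other tissues were mostly higher. Of 18 genes, 11 rose, 2 fell and 5 were not called; the median was 0.53. Plasma and matrix serine protease genes htra1b (1.92 ± 0.09), f2 (1.77 ± 0.09, prothrombin) and plg (1.43 ± 0.08, plasminogen) rose. The neuropeptide-processing gene cpe was at -0.36 ± 0.08, a call lost without sibling replicate 2 (adjusted p = 0.0699). The other gene that fell was cpa5, with 13113 and 14469 counts in mutant libraries, against 26986 and 38752 in siblings (-1.27 ± 0.09, adjusted p = 2.99e-13). It is known in zebrafish as a mast cell marker and stands next to cpa1 in the RefSeq annotation. Its level in siblings was high, at 1911 and 1878 CPM, and which cells these reads came from was not tested. Of 8 liver markers 5 rose, 1 fell and 2 were not called (median 0.72). Among those that rose were cp at 2.57 ± 0.09, tfa at 1.48 ± 0.08, apoa2 at 1.15 ± 0.09 and hamp at 1.49 ± 0.15. The fall of uox (-0.43 ± 0.09) was not called once sibling replicate 2 was left out, where it was -0.35. Not called were fabp10a (0.02 ± 0.08) and serpina1 (-0.11 ± 0.09). Of 18 genes of the secretory machinery of the endoplasmic reticulum, which every secretory cell uses, 12 rose and 0 fell (median 0.44), though 3 were lower without mutant replicate 1 and 1 with the replicate block; the rises were led by pdia4 (2.06 ± 0.10), calr3b (1.90 ± 0.10), hsp90b1 (1.67 ± 0.09) and hspa5 (1.51 ± 0.09). What part changes in other tissues played in the protease values was not tested.

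Of 16 genes that stand next to the proteases on the chromosome and are not among the 10, 3 were lower, 3 higher and 10 did not pass, with the last between -0.25 and 0.61. Over all genes tested 21% were lower and 22.9% higher, so these shares are near the background. The lower ones were cpa5, zgc:136461 and fzd8a (-0.39 ± 0.11), and the higher ones included alas2 (0.36 ± 0.12) and LOC100333286 (1.95 ± 0.61). The neighbours of prss1, si:dkeyp-84f3.9 (-0.10 ± 0.12) and si:ch211-261d7.3 (-0.15 ± 0.10), did not pass. Neighbours were read from another assembly than the one the submitters' processing notes name, GRCz11.

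The 6 other genes whose log2 CPM over the 4 libraries lay nearest to the mean profile of the 10 proteases were amy2a (distance 0.0980), the gamma-crystallin genes crygm2d15 (0.128), crygm2d17 (0.134) and crygm2d2 (0.143), cel.2 (0.131) and the keratin gene krt1-19d (0.147). The distance is Euclidean, after each gene was centred on its mean. Lens and keratin genes were thus among the nearest, beside acinar ones, and the proteases themselves lay between 0.0162 for prss59.1 and 0.717 for cpa4. Of the proteases, only prss59.1 and ela2l (0.0600) lay nearer than these 6 genes, and the next was ela2 at 0.208. As the libraries of a group were close in these genes, the distance mainly reflects the size of the difference between groups. Shared control was not tested. Gamma-crystallin copies can share reads.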

How the data were processed

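Per the labels' protocols, total RNA of whole embryos was isolated with Trizol and sequenced from NEBNext Ultra libraries. Deposited by the authors was 1 table of raw, unnormalized counts per gene. Named in the submitters' processing notes, with no role or order, are GRCz11 as the build, STAR 2.7.10a, fastp 0.23.2, DESeq2 1.26.0, featureCounts 2.0.1 and R 4.2.2. The annotation, the strand setting and the rule for multi-mapping reads are not given there, so overlapping or near-identical genes carry an uncertain split.

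The test used edgeR 4.0.16 in R 4.3.3 (filterByExpr, which removed 3139 rows; TMM; glmQLFit with legacy=FALSE; glmQLFTest; genotype as the only term), with Benjamini-Hochberg adjustment over the 20097 genes tested and a threshold of 0.05. DESeq2 1.42.0 was an alternative. SE is the absolute log2 fold change over the square root of F. The test recovered known changes when tested on simulated data. For profiles 0.5 CPM was added before the log2.

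The members and lists were chosen with earlier results of these data known. Of 151 entries in 11 other lists, 131 were found in the table (9 by a synonym in RefSeq); entries that are members were dropped. Named were the members, tubgcp6, up to 4 genes per list with the smallest p, called genes against the list's majority, and the 6 genes nearest in profile with a mean log2 CPM of at least 5; other genes were named after their values were seen; a few genes that the rule picks are left unreported. Alternatives were other scalings, DESeq2, no filter, a replicate block and leaving out each library. Replicates differed by more than counting noise (chi-square per degree of freedom of 5.64 in mutants and 2.73 in siblings).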

Additional observations from a re-analysis of the deposited data

How the results depend on the processing

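All 10 protease genes kept their direction and their adjusted p under 0.05 in each of 10 alternatives: 3 other scalings, DESeq2, no filter on low counts, the replicate block and leaving out each library. The highest adjusted p among them was 1.47e-10, for prss59.2. The log2 fold change of cpa4 ranged most, from -2.78 to -2.37. The median over the 10 genes lay between -1.97 and -1.83 when 1 library was left out, and their summed level between a log2 ratio of -1.70 and -1.60. The median over all genes tested was 0.01 and lay between -0.0044 and 0.0212 under the other scalings. Without sibling replicate 2, 2976 genes were higher and 2429 lower in mutants, against 4598 and 4218 with all 4 libraries; leaving out any other library gave from 3498 to 4840 higher and from 3020 to 4680 lower. DESeq2 called 3207 higher and 2916 lower. With the replicate block, 4829 genes were higher and 4516 lower, with the same 10 proteases; the replicate numbers were not shown to pair samples, as the correlation across genes of the differences between replicates 1 and 2 in mutants and in siblings was 0.0281. Of 940 further values over single genes, shares and lists, 885 kept direction and side of the threshold; the others were calls gained or lost for single genes and counts within lists. With 2 libraries a group, an exact permutation test cannot go below a two-sided p of 0.333, so values per library are given without one.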
